A study of Mus musculus with 12 samples.

Results

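Serine, glycine and one-carbon genes code for the enzymes that make serine, split it into glycine and a folate-bound carbon unit, and carry that unit through the mitochondrion, together with the plasma membrane glycine transporter Slc6a9. The set is defined by 9 symbols, Phgdh, Psat1, Psph, Shmt1, Shmt2, Mthfd2, Mthfd1l, Aldh1l2 and Slc6a9. All 9 were found among the 55335 genes listed, and 8 of them passed the filter on low counts, Aldh1l2 being the exception. Slc6a9 was chosen by a measured value, its rise with the inhibitor JSH-23, which was among the largest of these data, so for the members the JSH-23 comparisons are given as a description, without p values, and nothing is read from counts of calls there.

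The cells were bone marrow-derived dendritic cells (BMDC) of C57BL/6 CreER mice, cultured for 6 days with GM-CSF, and RNA-seq libraries were made in 4 groups of 3. WT cells received neither agent, WTL cells received lipopolysaccharide (LPS, a bacterial outer membrane component that activates dendritic cells) at 100 ng/ml for 3 h, WT + JSH23 cells received JSH-23 at 100 µM for 3 h, and WTL + JSH23 cells were given JSH-23 for 3 h before LPS. JSH-23 is a small molecule known as an inhibitor of the nuclear entry of the NF-κB subunit RelA. All 4 groups carried the CreER transgene at the Rosa26 locus with an intact Ctcf gene, and in the methods of the study CD11c-bearing floating cells of male and female littermates aged 8 to 12 weeks were collected after culture with 4-hydroxytamoxifen from the first day. The labels give neither the use of 4-hydroxytamoxifen nor that of the JSH-23 solvent in these libraries. The methods of the paper state 3 biological replicates per condition for RNA-seq. The labels do not say whether these came from separate animals or cultures, so p values set differences against the spread between these samples only. Replicates of WT and WTL are numbered 4 to 6 and those of the JSH-23 groups 1 to 3. Whether the 2 sets were cultured together is not stated, so any difference between them cannot be told apart from JSH-23. The paper does not state whether both JSH-23 groups were collected at the same time after JSH-23. A difference in that time could not be told apart from LPS after JSH-23, nor from the interaction.

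Cells make serine from the glycolytic intermediate 3-phosphoglycerate in steps catalysed by Phgdh (phosphoglycerate dehydrogenase), Psat1 (phosphoserine aminotransferase) and Psph (phosphoserine phosphatase). The serine hydroxymethyltransferases Shmt1 in the cytosol and Shmt2 in the mitochondrion then convert serine to glycine and load tetrahydrofolate with a carbon unit, which Mthfd2, Mthfd1l and Aldh1l2 oxidise or release as formate inside the mitochondrion for use in purine, thymidylate and methionine synthesis. Activated immune cells use this pathway, and many of its genes are known targets of Atf4, the transcription factor of the amino acid and integrated stress response.

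The depth was similar in all libraries, with totals between 24664724 and 34837847 expected counts. Replicate 3 of WTL + JSH23 stood apart from its group, with a chi-square of 8.18 to 9.11 per degree of freedom against the other two, where the other 10 replicate pairs lay between 2.32 and 4.5. Values of the members that involve this group, and counts over the other pathway genes, are therefore also given without that library. All 10 of the listed dendritic cell markers (Itgax, H2-Ab1, Cd74, Flt3 and others) passed the filter, with summed levels between 21183 and 23830 TPM over all libraries. Most of the sum came from Cd74, H2-Eb1 and H2-Ab1, on average at 14122, 3775 and 3590 TPM in WT. Flt3 was low, at 2.94 TPM on average in WT.

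Promoter sequences are shown for the members with the strongest difference between cells with and without JSH-23, Phgdh and Slc6a9. Each window runs from 250 bases before to 50 bases after a transcription start in RefSeq on build GRCm38.p6 and is written 5′ to 3′ along the strand of the gene. Capitals mark a match to the letters of the antioxidant response element, TGACNNNGC on either strand. Slc6a9 has 3 annotated starts, and the gene-level values do not say which of them was used.
Phgdh, chr3:98339920-98340219, minus strand: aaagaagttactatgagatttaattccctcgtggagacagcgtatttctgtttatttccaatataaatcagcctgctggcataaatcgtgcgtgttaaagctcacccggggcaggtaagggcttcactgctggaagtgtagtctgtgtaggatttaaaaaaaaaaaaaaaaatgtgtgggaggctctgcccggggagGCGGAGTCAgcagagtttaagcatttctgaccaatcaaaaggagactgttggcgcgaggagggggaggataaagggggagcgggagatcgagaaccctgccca
Slc6a9, first start, chr4:117835008-117835307, plus strand: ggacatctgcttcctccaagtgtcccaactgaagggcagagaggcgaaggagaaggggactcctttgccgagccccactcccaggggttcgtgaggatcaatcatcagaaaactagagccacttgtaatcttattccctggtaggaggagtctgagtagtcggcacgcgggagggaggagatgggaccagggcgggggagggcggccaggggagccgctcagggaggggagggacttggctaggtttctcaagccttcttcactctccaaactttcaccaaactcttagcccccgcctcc
Slc6a9, middle start, chr4:117849100-117849399, plus strand: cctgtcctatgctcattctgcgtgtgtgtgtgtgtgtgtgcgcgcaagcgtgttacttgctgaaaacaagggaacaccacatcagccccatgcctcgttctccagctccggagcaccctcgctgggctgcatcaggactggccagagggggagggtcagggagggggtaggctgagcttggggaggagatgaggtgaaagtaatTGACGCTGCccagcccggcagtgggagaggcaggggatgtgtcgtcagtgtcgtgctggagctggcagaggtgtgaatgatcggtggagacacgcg
Slc6a9, last start, chr4:117855297-117855596, plus strand: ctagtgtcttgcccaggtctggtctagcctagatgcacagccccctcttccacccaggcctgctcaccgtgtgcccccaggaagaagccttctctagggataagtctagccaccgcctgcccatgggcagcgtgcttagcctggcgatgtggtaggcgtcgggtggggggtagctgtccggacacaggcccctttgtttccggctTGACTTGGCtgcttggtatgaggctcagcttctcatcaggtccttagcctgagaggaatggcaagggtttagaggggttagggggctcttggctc

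RefSeq windows were found for 8 of the members, 11 windows in all, and none for Aldh1l2. The antioxidant response element letters occurred in 4 of these 11 windows, belonging to Phgdh, Psph and Slc6a9, beside 12.4% of the 32851 windows of the table. In Phgdh the match lay on the opposite strand at -53 to -45 from the start, and in Slc6a9 on the same strand at -46 to -38 of the middle start and -45 to -37 of the last one. The letters of the C/EBP-ATF response element, TGATGNAAN on either strand, were in 0 of the 11 windows and in 3.95% of all windows. The E-box, CACGTG, and the kappaB consensus were also in 0 of the 11, beside 7.15% and 8.46% of all windows. A match is a description of letters and does not show binding, and a window without one says nothing of sites elsewhere.

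Levels between genes were compared per length, in TPM, the deposited abundance scaled to transcript length and to a fixed total per library. Mthfd2, the mitochondrial methylenetetrahydrofolate dehydrogenase, was by far the most abundant member in each of the 12 libraries. Its TPM was 160 ± 4.29 (SD, n = 3) in WT, 178 ± 3.85 in WTL, 218 ± 9.77 in WT + JSH23 and 263 ± 10.6 in WTL + JSH23. It made up between 80.8% and 89.5% of the summed TPM of the members, which was 185 to 193 in WT, 195 to 204 in WTL, 261 to 280 in WT + JSH23 and 300 to 326 in WTL + JSH23. In WT the next were Shmt2 at 9.35 ± 0.425 TPM and Psat1 at 8.79 ± 0.327, whose libraries overlapped. Psph (3.46 to 3.62 TPM) and Phgdh (2.81 to 3.50) followed and overlapped in turn, as did Shmt1 (1.13 to 2.64), Mthfd1l (1.52 to 1.67) and Slc6a9 (0.91 to 1.19) in part. In the JSH-23 groups Slc6a9 moved up this order, at 8.58 ± 0.0577 TPM in WT + JSH23 and 8.54 ± 1.59 in WTL + JSH23, where it overlapped Phgdh at 7.48 ± 1.09 and 8.85 ± 1.92. Aldh1l2, the mitochondrial formyltetrahydrofolate dehydrogenase, was at or near 0 throughout, with 0, 4 and 3 counts in WT, 4, 4 and 1 in WTL, 4, 4 and 1 in WT + JSH23 and 8, 3 and 5 in WTL + JSH23, and was not tested.

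**Figure D1:**
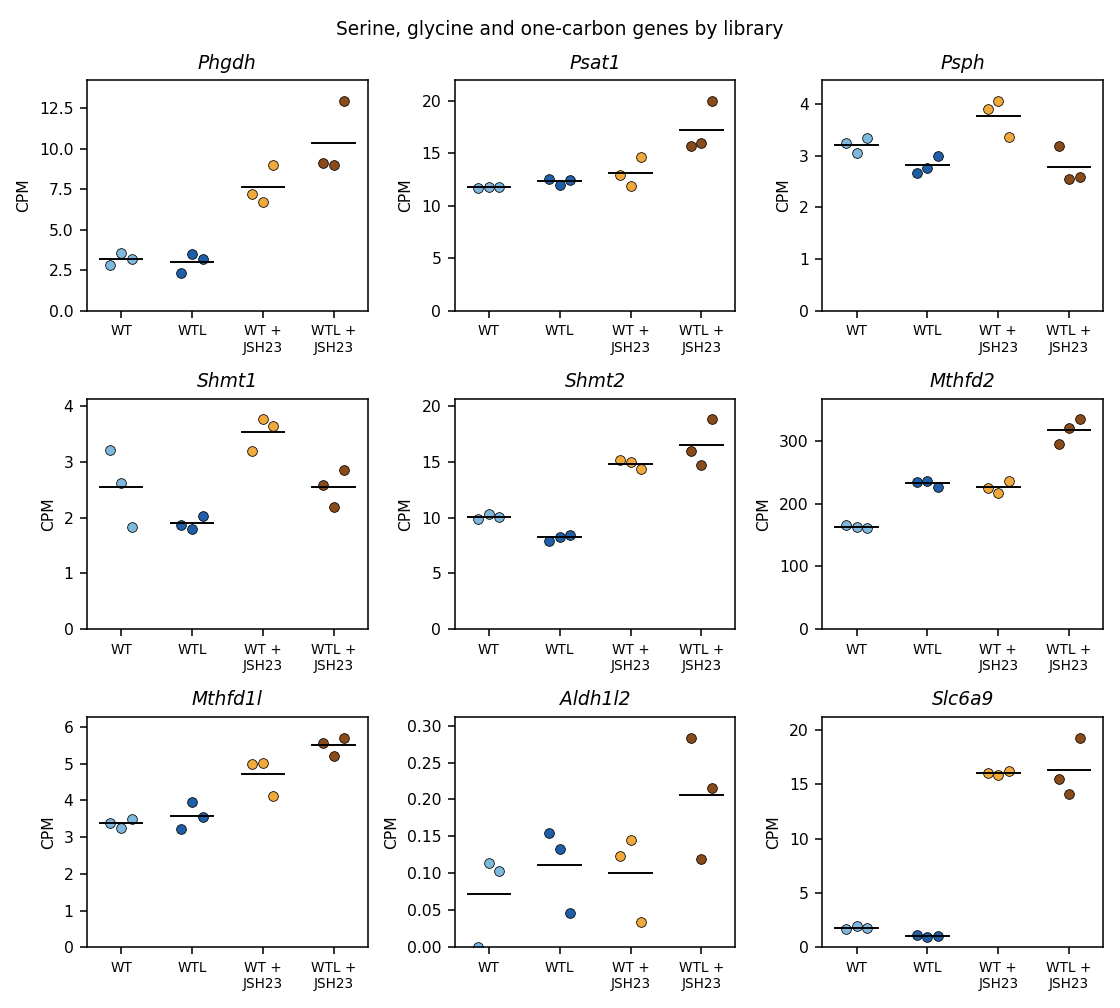
Normalised level of each member in CPM (counts scaled to the effective library size, vertical axis from 0) in the 12 libraries, with groups on the horizontal axis, 1 point per library and a bar at the group mean. The 6 libraries with JSH-23 lie above the 6 without it for Phgdh, Shmt2, Mthfd1l and Slc6a9, and Aldh1l2 is at 0.283 CPM or less.

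The first comparison was the response to LPS in the absence of JSH-23, WTL against WT. Differences are given as log2 fold changes of normalised counts with the standard error (SE), and adjusted p values are from edgeR's quasi-likelihood test over the 14357 genes tested. Of the 8 members tested, 1 rose (Mthfd2) and 3 fell (Shmt1, Shmt2 and Slc6a9) at an adjusted p under 0.05, where 31.0% of all genes tested rose and 34.7% fell. The choice of Slc6a9 used these same libraries, so its call is not independent of that choice. No member passed with a change of more than 2-fold, as 7.36% of all genes did upwards and 9.09% downwards, and the median member difference was -0.14 on the log2 scale beside -0.05 for all genes.

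The genes of serine synthesis did not pass the test on counts. Phgdh, which commits 3-phosphoglycerate to the pathway, was at 2.84, 3.58 and 3.17 CPM in WT and 2.32, 3.50 and 3.22 in WTL, overlapping ranges, with a log2 difference of -0.08 (SE 0.188, edgeR adjusted p = 0.714). Psat1 stood at 11.7, 11.8 and 11.8 CPM in WT and 12.6, 12 and 12.4 in WTL, 0.07 higher on the log2 scale (SE 0.0903, edgeR adjusted p = 0.526), but lower in TPM, at 7.32 ± 0.254 against 8.79 ± 0.327. Psph gave 3.24, 3.04 and 3.35 CPM in WT and 2.67, 2.77 and 2.99 in WTL, a log2 difference of -0.19 (SE 0.14, edgeR adjusted p = 0.233). The WTL libraries of Psph lay just under those of WT. On the log2(TPM + 1) scale Psph fell and passed, at -0.35 (limma adjusted p = 0.0135). The median of all genes was -0.26 on that scale, beside -0.05 on counts. That shift also bears on the lower TPM of Psat1.

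Both serine hydroxymethyltransferases were lower in WTL. Shmt2, the mitochondrial enzyme, was at 9.88, 10.3 and 10.1 CPM in WT and 7.94, 8.30 and 8.47 in WTL, without overlap, and fell by 0.29 on the log2 scale (SE 0.0873, edgeR adjusted p = 0.00555). For the cytosolic Shmt1 the values were 3.21, 2.62 and 1.83 CPM in WT and 1.86, 1.80 and 2.03 in WTL, so that 1 WT library lay among the WTL libraries. Its fall of -0.44 (SE 0.189, edgeR adjusted p = 0.0443) was at the edge of the threshold, which it missed in 8 of the 12 fits that left out 1 library, including the fit without WT replicate 4 (-0.25, edgeR adjusted p = 0.283).

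Mthfd2 rose. It measured 166, 164 and 161 CPM in WT and 235, 237 and 228 in WTL, a clear separation, with a log2 difference of 0.51 (SE 0.0443, edgeR adjusted p = 1.63e-09). Its rise in TPM was smaller, 0.16 on the log2(TPM + 1) scale (limma adjusted p = 0.00389). The median of all genes there was -0.26, beside -0.05 on counts. Mthfd1l, the mitochondrial formyltetrahydrofolate synthetase that yields formate, was at 3.39, 3.24 and 3.48 CPM in WT and 3.22, 3.97 and 3.55 in WTL, and its difference of 0.09 (SE 0.126, edgeR adjusted p = 0.539) was within the spread and of the opposite sign in TPM (-0.15). Slc6a9 was low in both groups and lower in WTL, with 1.68, 1.96 and 1.76 CPM in WT and 1.12, 0.967 and 1.01 in WTL. These libraries did not overlap, and the fall was -0.80 (SE 0.201, edgeR adjusted p = 0.0014). Slc6a9 was chosen for a rise with JSH-23 that is measured against these same libraries. Its p value is therefore not independent of that choice.

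Calls in the marker lists were also counted with LPS. Of all genes tested 31.0% rose and 34.7% fell without JSH-23, and 27.4% and 27.1% with it. Of the cycling cell genes 8 of 10 fell and 1 rose without JSH-23, and 9 fell and 1 rose with it. Of the neutrophil genes 4 of 6 tested rose without JSH-23 and none passed with it in either direction. Of the 8 macrophage genes tested 3 rose and 4 fell without it and 3 rose and 5 fell with it, near the shares of all genes without it. The dendritic cell list gave 8 of 10 higher and 1 lower without JSH-23, and 8 higher and 0 lower with it. The part of these lists in the members' differences was not tested.

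The second comparison was the response to LPS after JSH-23, WTL + JSH23 against WT + JSH23, which shares no library with the first. Here 3 members rose (Phgdh, Psat1 and Mthfd2) and 2 fell (Psph and Shmt1), beside 27.4% of all genes tested that rose and 27.1% that fell. None did so by more than 2-fold, beside 5.85% of all genes upwards and 4.49% downwards. The median member difference was 0.18, beside -0.02 for all genes. The WTL + JSH23 values below are given in the order of replicates 1, 2 and 3.

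Phgdh and Psat1 of serine synthesis rose and Psph, which acts last, fell. Phgdh was at 7.19, 6.73 and 8.98 CPM in WT + JSH23 and 9.14, 8.99 and 12.9 in WTL + JSH23, which just failed to overlap, with a rise of 0.43 (SE 0.14, edgeR adjusted p = 0.0127). Without replicate 3 of WTL + JSH23 the value was 0.25 (edgeR adjusted p = 0.122). Psat1 gave 13.0, 11.9 and 14.6 CPM in WT + JSH23 and 15.7, 16.0 and 19.96 in WTL + JSH23, a rise of 0.38 (SE 0.0861, edgeR adjusted p = 0.000744), and of 0.27 (edgeR adjusted p = 0.00644) without that replicate. On the TPM scale neither passed, with 0.21 for Phgdh (limma adjusted p = 0.253) and 0.11 for Psat1 (limma adjusted p = 0.316). The median of all genes was -0.16 on that scale, beside -0.02 on counts. Psph fell from 3.90, 4.05 and 3.37 CPM to 3.19, 2.55 and 2.59, by 0.44 on the log2 scale (SE 0.139, edgeR adjusted p = 0.0114), and the groups did not overlap. The difference in Psph was -0.39 (edgeR adjusted p = 0.0399) without replicate 3 of WTL + JSH23.

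Shmt2 and Shmt1 parted here. Shmt2 was at 15.2, 14.98 and 14.4 CPM in WT + JSH23 and 15.9, 14.7 and 18.8 in WTL + JSH23, overlapping ranges, with a difference of 0.15 (SE 0.076, edgeR adjusted p = 0.11), or 0.05 (edgeR adjusted p = 0.616) without replicate 3 of WTL + JSH23. Shmt1 was at 3.20, 3.76 and 3.64 CPM in WT + JSH23 and 2.59, 2.19 and 2.85 in WTL + JSH23, a fall of -0.47 (SE 0.175, edgeR adjusted p = 0.027) that missed the threshold in 4 of the 12 fits that left out 1 library and on the TPM scale (limma adjusted p = 0.0843). It was -0.56 (edgeR adjusted p = 0.022) without replicate 3 of WTL + JSH23.

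Mthfd2 rose again, from 225, 218 and 237 CPM to 296, 322 and 335, by 0.48 (SE 0.0437, edgeR adjusted p = 4.99e-09). Mthfd1l was at 4.98, 5.03 and 4.12 CPM in WT + JSH23 and 5.56, 5.21 and 5.70 in WTL + JSH23. Its difference of 0.22 (SE 0.114, edgeR adjusted p = 0.108) did not pass, although the libraries did not overlap. Without replicate 3 of WTL + JSH23, Mthfd2 rose by 0.45 (edgeR adjusted p = 3.64e-09) and Mthfd1l differed by 0.20 (edgeR adjusted p = 0.219). Slc6a9 was at 16.0, 15.8 and 16.2 CPM without LPS and 15.5, 14.1 and 19.3 with it, so that the WTL + JSH23 libraries surrounded those of WT + JSH23, with a difference of 0.02 (SE 0.0876, edgeR adjusted p = 0.857) that was -0.11 without replicate 3 of WTL + JSH23.

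**Figure D2:**
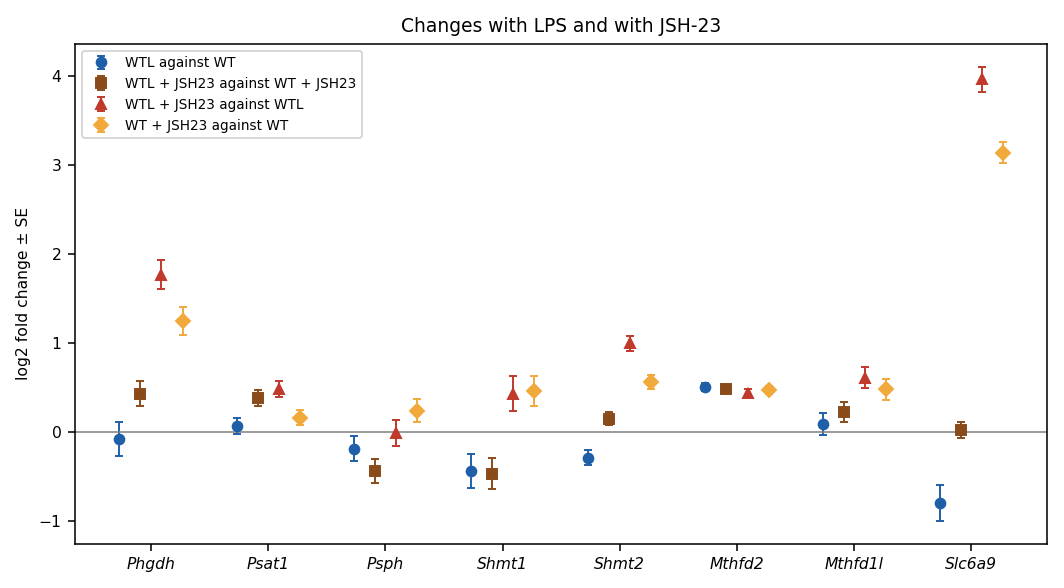
Log2 fold change (vertical axis, with bars of 1 SE) of the 8 members tested in the 4 pairwise comparisons of the groups. The JSH-23 comparisons, shown as triangles and diamonds, stand at 3.97 and 3.14 for Slc6a9 and at 1.77 and 1.25 for Phgdh, and Mthfd2 sits between 0.44 and 0.51 in all 4.

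The interaction compares the LPS response in the presence and absence of JSH-23. Of the 7 members in which it was tested, 1 (Shmt2) was above 0 at an adjusted p under 0.05 and 0 below, where 9.54% of all genes tested were above and 8.44% below, and 0.933% and 0.404% by more than 2-fold. The Shmt2 response was 0.44 higher on the log2 scale with JSH-23 than without it (SE 0.116, edgeR adjusted p = 0.0109) and 0.34 (edgeR adjusted p = 0.0214) without replicate 3 of WTL + JSH23. For Slc6a9, which was chosen for its JSH-23 rise, the value of 0.83 (SE 0.219) is given without a test. Phgdh at 0.52 (SE 0.234, edgeR adjusted p = 0.14) and Psat1 at 0.32 (SE 0.125, edgeR adjusted p = 0.0867) did not pass. Their passing with JSH-23 and not without it is therefore not shown to be a difference in this fit. Both passed with the replicate number as a block, an alternative fit given at the end. For Mthfd2 the interaction was -0.03 (SE 0.0621, edgeR adjusted p = 0.823), and a p above the threshold does not show that the responses were equal. Psph (-0.24, SE 0.198), Shmt1 (-0.03, SE 0.261) and Mthfd1l (0.13, SE 0.17) did not pass either. Without replicate 3 of WTL + JSH23 the interaction was 0.33 for Phgdh, 0.20 for Psat1, -0.20 for Psph, -0.11 for Shmt1, -0.07 for Mthfd2, 0.10 for Mthfd1l and 0.69 for Slc6a9.

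The comparisons with JSH-23 are descriptive for the members, since the list was drawn up with them in view. Under LPS (WTL + JSH23 against WTL), 6 of the 8 members were higher past the adjusted p threshold of 0.05 and 0 were lower, beside 24.5% and 24.2% of all genes tested, counts that the choice of members bears on. Without LPS (WT + JSH23 against WT), 6 were higher and 0 lower, beside 18.8% and 22.1%. In both, Phgdh and Slc6a9 exceeded a 2-fold difference, as 3.75% of all genes did upwards and 3.25% downwards under LPS, and 2.43% and 2.94% without it. These comparisons share no library with each other, but each shares its libraries with the LPS comparisons above.

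Slc6a9 stood furthest out. Its 6 libraries with JSH-23 lay between 14.1 and 19.3 CPM and the 6 without it between 0.967 and 1.96, with no overlap. The difference was 3.97 on the log2 scale (SE 0.141, 15.7-fold) under LPS and 3.14 (SE 0.118, 8.84-fold) without it, and 3.84 under LPS without replicate 3 of WTL + JSH23. Phgdh lay between 6.73 and 12.9 CPM with JSH-23 and between 2.32 and 3.58 without, a difference of 1.77 under LPS and 1.25 without it. Leaving out replicate 3 of WTL + JSH23 gave 1.58 for Phgdh.

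Shmt2 followed, at 14.4 to 18.8 CPM with JSH-23 and 7.94 to 10.3 without, with differences of 1.00 under LPS (0.90 without replicate 3 of WTL + JSH23) and 0.56 without it. Mthfd1l (0.61 and 0.48) and Mthfd2 (0.44 and 0.47) were higher by similar amounts with and without LPS. In Mthfd1l all libraries with JSH-23 (4.12 to 5.70 CPM) lay above those without (3.22 to 3.97). For Psat1 the difference was 0.48 under LPS and 0.16 without it, where WT (11.7 to 11.8 CPM) lay just under WT + JSH23 (11.9 to 14.6 CPM). Shmt1 was higher by 0.43 and 0.46, and Psph differed by -0.01 under LPS and 0.24 without it, the former changing sign with the scaling. Under LPS without replicate 3 of WTL + JSH23 the differences were 0.37 for Psat1, 0.34 for Shmt1, 0.40 for Mthfd2, 0.59 for Mthfd1l and 0.04 for Psph.

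Calls in the marker lists were counted with JSH-23 as well. Of all genes tested 24.5% rose and 24.2% fell under LPS, and 18.8% and 22.1% without it. Of the 10 dendritic cell genes 3 rose and 5 fell under LPS, and 4 rose and 3 fell without it. Macrophage markers summed to 2654 to 2772 TPM in WT and 2279 to 2419 in WTL, but to 1720 to 1802 in WT + JSH23 and 1457 to 1554 in WTL + JSH23, and 7 of their 8 genes tested fell in each JSH-23 comparison. Of the cycling cell genes, 7 of 10 fell with JSH-23 under LPS, and 6 fell and 2 rose without LPS, with sums of 246 to 259 TPM in WT, 230 to 244 in WTL, 236 to 246 in WT + JSH23 and 203 to 211 in WTL + JSH23. All 6 neutrophil genes tested fell with JSH-23 under LPS, where the sum was 172 to 191 TPM beside 218 to 226 in WTL. Without LPS 1 of the 6 fell and 0 rose, and the sums overlapped, at 195 to 219 TPM in WT and 189 to 210 in WT + JSH23. The part of these lists in the members' differences was not tested, and in bulk RNA fewer cells of a type and less RNA per cell cannot be told apart. Slc6a9 is also known as a gene of erythroid precursors, and the erythroid list was near 0, with at most 0.46 TPM summed over 8 genes in any library and Hba-a1, Hba-a2 and Slc4a1 at 0 in all 12 libraries.

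Paralogs of the members were measured beside them. Mthfd1, the cytosolic trifunctional folate enzyme, fell with LPS by 0.51 (SE 0.0999, edgeR adjusted p = 0.000141) without JSH-23 and by 0.55 (SE 0.103, edgeR adjusted p = 0.000115) with it, and did not pass in either JSH-23 comparison (-0.11 and -0.07). Its level was 4.65 ± 0.421 TPM in WT, and that of Mthfd1l 1.52 to 1.67 TPM. Aldh1l1, the cytosolic formyltetrahydrofolate dehydrogenase, was at 19.2 ± 0.889 TPM in WT where Aldh1l2 was near 0. It fell with JSH-23, to 12.2 ± 1.65 TPM without LPS (-0.70, SE 0.0562, edgeR adjusted p = 1.45e-09) and from 14.9 ± 1.28 to 8.98 ± 0.465 TPM under LPS (-0.81, SE 0.0604, edgeR adjusted p = 3.07e-10). Mthfd2l, a second mitochondrial dehydrogenase, was at 5.78 ± 1.6 TPM in WT, far under Mthfd2, and rose with JSH-23 by 0.58 without LPS (SE 0.134, edgeR adjusted p = 0.00146) and by 0.37 under LPS (SE 0.139, edgeR adjusted p = 0.0334). Slc6a5, the other glycine transporter of the Slc6 family, reached at most 0.01 TPM in any library.

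**Figure D3:**
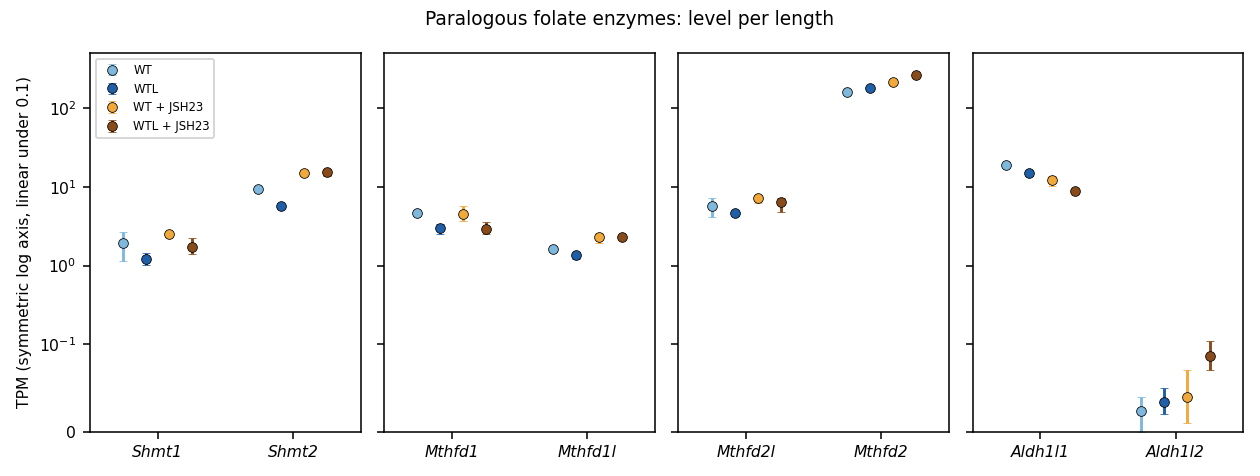
Level in TPM (vertical axis, logarithmic above 0.1 and linear below) of 4 pairs of related folate enzymes, with a point at the mean of 3 libraries per group and bars from the lowest to the highest library. Mthfd2 lies far above Mthfd2l in every group, and Aldh1l1 (8.98 to 19.2 TPM on average) far above Aldh1l2.

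Of 73 other genes of the pathway, 60 could be tested. With LPS alone 12 rose and 31 fell, with LPS after JSH-23 13 rose and 28 fell, and the median differences were -0.29 and -0.26. Of all genes tested 31.0% rose and 34.7% fell in the former and 27.4% and 27.1% in the latter. Without replicate 3 of WTL + JSH23 the counts of the latter were 13 and 24. On the log2(TPM + 1) scale the counts were 9 and 42, and 9 and 33, where the median of all genes was -0.26 and -0.16. The strongest rise in both was that of Cth (cystathionine gamma-lyase, which makes cysteine), by 1.61 (SE 0.302, edgeR adjusted p = 8.12e-05) and 1.46 (SE 0.301, edgeR adjusted p = 0.00032). Cth was low, on average at 0.378 CPM in WT, 1.17 in WTL, 0.421 in WT + JSH23 and 1.18 in WTL + JSH23. It was followed by Phykpl (1.03 and 0.85) in both, then by Tyms, thymidylate synthase (0.98), without JSH-23 and by Mthfs (0.79) with it. The strongest fall in both was that of the proton-coupled amino acid transporter Slc36a1, at -2.40 (SE 0.0669, edgeR adjusted p = 7.89e-18) and -1.42 (SE 0.0608, edgeR adjusted p = 2.12e-14). Slc1a4, a neutral amino acid transporter that carries serine (-2.17), and the folate carrier Slc19a1 (-1.32) came next without JSH-23, and Slc46a1 (-1.33) and Adssl1 (-1.10) with it. Slc19a1 was low, on average at 0.899 CPM in WT and 0.352 in WTL. So was Slc46a1, at 0.431 CPM in WT + JSH23 and 0.167 in WTL + JSH23.

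Of the 10 other serine and glycine transporters tested, 0 rose and 9 fell with LPS alone, where 31.0% of all genes rose and 34.7% fell. With LPS after JSH-23, 2 rose and 7 fell, beside 27.4% and 27.1% of all genes. With JSH-23 under LPS 8 rose and 1 fell (24.5% and 24.2% of all genes), and without LPS 4 rose and 1 fell (18.8% and 22.1%). Their interaction was above 0 and passed in 7 of 10 and below 0 in none, beside 9.54% and 8.44% of all genes. Slc1a4 fell from 3.39 ± 0.381 CPM in WT to 0.765 ± 0.223 in WTL, but only from 5.04 ± 0.561 in WT + JSH23 to 2.97 ± 0.309 in WTL + JSH23, an interaction of 1.40 (SE 0.255, edgeR adjusted p = 0.000561). Slc36a1 gave 0.98 (SE 0.0937, edgeR adjusted p = 4.61e-07). Slc38a2, a sodium-coupled carrier of small neutral amino acids, fell with LPS alone (-0.42, SE 0.0375, edgeR adjusted p = 2.69e-09) and rose with LPS after JSH-23 (0.16, SE 0.0371, edgeR adjusted p = 0.000866), with an interaction of 0.58 (SE 0.0527, edgeR adjusted p = 2.44e-07). Over all 60 pathway genes the interaction was higher in 11 and lower in 5, Adss (-0.35) and Sptlc2 (-0.22) being among the latter, and on the log2(TPM + 1) scale higher in 7 and lower in 0. These counts were also 11 and 5 without replicate 3 of WTL + JSH23.

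**Figure D4:**
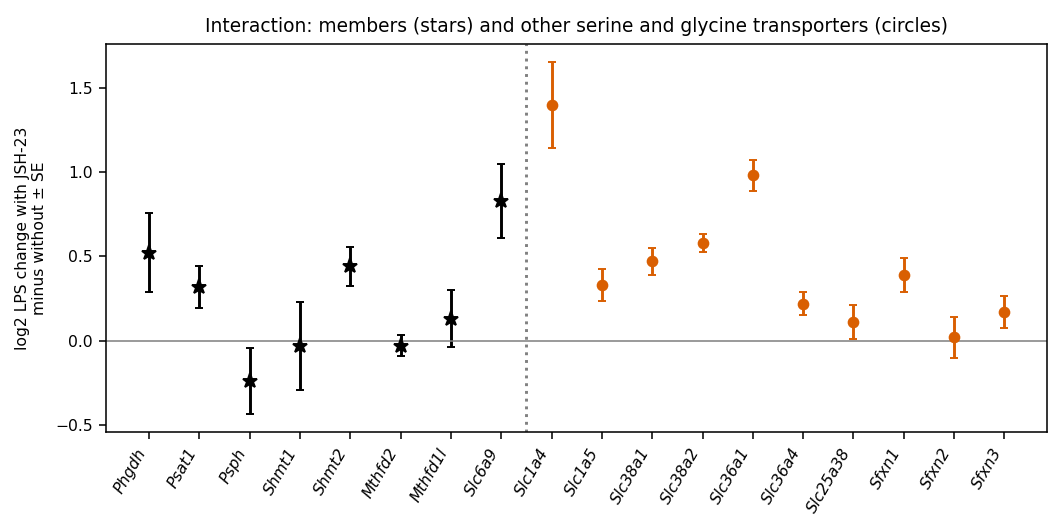
Interaction of LPS and JSH-23 (vertical axis, the log2 LPS change with JSH-23 minus that without it, with bars of 1 SE) for the 8 members, as stars, and the 10 other serine and glycine transporters tested, as circles. Slc1a4 at 1.40 and Slc36a1 at 0.98 lie above Slc6a9 at 0.83, and Mthfd2 and Shmt1 are at -0.03.

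**Figure D5:**
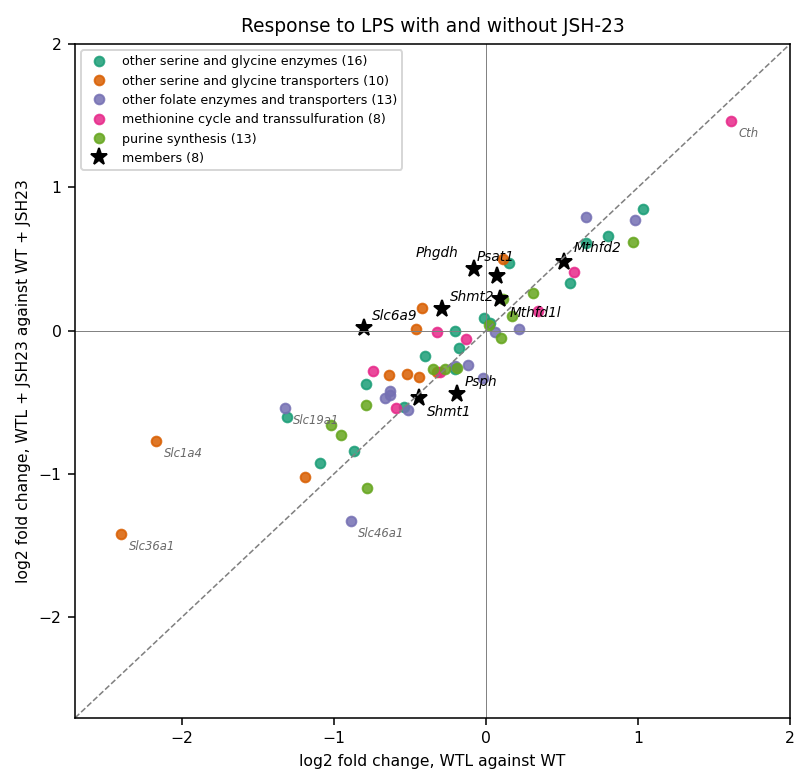
Log2 fold change with LPS in cells without JSH-23 (horizontal axis) and with it (vertical axis) for the 8 members tested (stars) and 60 other pathway genes (circles, coloured by list), with a dashed line of equal change. Slc6a9 and Shmt2 lie above the line, Mthfd2 on it, and Slc36a1 and Slc1a4 at the far left.

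With JSH-23 itself, 22 of the 60 pathway genes rose and 11 fell under LPS (22 and 4 on the log2(TPM + 1) scale), and 17 rose and 9 fell without LPS, beside 24.5% and 24.2% of all genes under LPS and 18.8% and 22.1% without it. Under LPS 21 rose and 10 fell without replicate 3 of WTL + JSH23. Slc1a4 rose by 1.97 (SE 0.206, edgeR adjusted p = 6.17e-08) under LPS and by 0.57 (SE 0.142, edgeR adjusted p = 0.00253) without it. Slc19a1 (1.07) and Slc36a1 (0.91) also rose under LPS, and Slc36a4 (0.65) and Mthfd2l (0.58) without it. Slc19a1 was low, on average at 0.352 CPM in WTL and 0.763 in WTL + JSH23. Among the strongest falls in both were Aldh1l1, whose values are given above, and Gatm, which makes the creatine precursor guanidinoacetate from glycine. Gatm went from 7.45 ± 1.11 to 4.88 ± 0.573 CPM under LPS (-0.62, SE 0.113, edgeR adjusted p = 0.000106) and from 8.51 ± 0.277 to 5.31 ± 0.0959 CPM without it (-0.68, SE 0.105, edgeR adjusted p = 1.63e-05).

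The Atf4 reference genes were measured beside the members. Of 14 genes, 13 rose and 1 fell with JSH-23 under LPS, and 13 rose and 0 fell without LPS, with median differences of 0.93 and 0.49, where 24.5% and 18.8% of all genes rose. Atf4 itself rose by 1.08 (SE 0.0506, edgeR adjusted p = 2.23e-13) and 0.89 (SE 0.0505, edgeR adjusted p = 6.4e-12). Its targets Trib3 (4.58 and 3.27), Chac1 (3.95 and 4.27) and Asns, asparagine synthetase (3.23 and 2.56), rose more, and Ddit3 rose by 0.66 and 0.48. With LPS, 5 of the 14 rose and 3 fell in the absence of JSH-23 and 10 rose and 1 fell after it, beside 31.0% and 34.7% of all genes in the former and 27.4% and 27.1% in the latter. The interaction was 1.31 for Trib3 (SE 0.433, edgeR adjusted p = 0.0403) and 0.68 for Asns (SE 0.195, edgeR adjusted p = 0.0196), and Atf4 at 0.19 (SE 0.071, edgeR adjusted p = 0.0695) did not pass. Trib3 was low without JSH-23, at 0.654 to 1.1 CPM in WT and 0.4 to 0.659 in WTL, ranges that overlapped. It spread from 9.92 to 17 CPM in WTL + JSH23. Values of the Atf4 genes without replicate 3 of that group are not given here.

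The genes most like each member over the 12 libraries were found by the root mean square difference of centred log2 CPM among 8178 protein-coding genes. Only genes with a mean of at least 10 CPM in at least 1 group were searched, and the members themselves were left out. For Slc6a9 the nearest was Trib3, at 0.345 beside a standard deviation of 1.77 of Slc6a9 itself, and then Sel1l3 at 0.575. Phgdh was nearest to Cars, the cysteinyl-tRNA synthetase, at 0.167 (own standard deviation 0.79) and to Pcx at 0.183. Shmt2 was nearest to Hk3 at 0.0691 and to Tars, the threonyl-tRNA synthetase, at 0.0852 (own standard deviation 0.409), and Mthfd2 to Zwint at 0.0574 and Psmd11 at 0.0585 (own standard deviation 0.341). For the other members the nearest were Hax1 and Zbtb2 (Psat1), Fads2 and Tldc1 (Psph), Zdhhc8 and Faap100 (Shmt1) and Hyal2 and Usp22 (Mthfd1l), at 0.0786 to 0.158. These values describe likeness in 12 libraries of 4 groups only.

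Several members overlap other genes, and the strand setting of the counting was not stated. Slc6a9 (chr4:117834506-117875198, plus strand) overlaps B4galt2 and Ccdc24 on the opposite strand, which had 7 to 26 and 0 to 30 counts per library where Slc6a9 had 22 to 521. Phgdh (chr3:98313170-98339990, minus strand) had 60 to 299 counts and its pseudogene Phgdh-ps1 0 in all libraries. Psph (chr5:129765558-129787449) overlaps the start of the abundant Cct6a, and Shmt1 (chr11:60788104-60811718) overlaps Smcr8, and these members had only 60 to 127 and 44 to 107 counts with fractional values in all 12 libraries, so that reads shared between the neighbours cannot be told apart. Mthfd2 (chr6:83305691-83325908, minus strand) and Shmt2 (chr10:127517123-127522444, minus strand) had whole counts throughout.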

How the data were processed

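RNA was sequenced from 12 libraries of mouse BMDC. The authors trimmed reads with Trim Galore, aligned them with STAR (2.6.0c per the labels) to mm10 and estimated expression per gene with RSEM, and the GENCODE release is not given in the sources used here. The labels name an rRNA depletion kit and the methods a poly(A) kit, which was not settled. The deposited expected counts are not normalised between libraries. TPM and FPKM were also computed by the authors, from the expected counts and transcript lengths, and TPM was used for levels and FPKM as an alternative. Symbols and coordinates came from GENCODE M21 on GRCm38, where 55154 identifiers matched without their version.

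Expected counts were rounded, filtered with filterByExpr and scaled by TMM (factors 0.859 to 1.12) in edgeR 4.0.16 (R 4.3.3), and a quasi-likelihood F-test was fitted to all 12 libraries with 1 mean per group (8 residual degrees of freedom). Adjustment over 14357 genes followed Benjamini-Hochberg, and an adjusted p under 0.05 counted as a call. SE is the absolute log2 fold change divided by the square root of F. DESeq2 1.42.0, limma 3.58.1 on log2(TPM + 1), other scalings and filters, a 2-fold threshold, leaving out each library and a replicate block were tried as alternatives. The scripts were tested on simulated data. Members, gene lists and the rule for named genes (all members, their paralogs, the 3 largest called rises and falls of other pathway genes per comparison, and 5 Atf4 genes) were chosen with earlier results of these data known. Some results under that rule are not reported here. Genes named outside it were chosen after their values were seen. Deviations of same-numbered libraries from their group means correlated at r 0.0142 to 0.0614, all positive but under 0.1, so numbers were not taken as pairs in the main fit. Correlations this low do not show that the libraries were unpaired.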

Additional observations from a re-analysis of the deposited data

Results flagged for a closer look

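The interaction test compared the LPS effect with and without JSH-23 over all genes (edgeR, Benjamini-Hochberg). Among the members other than Slc6a9, the pathway genes and the Atf4 genes named here, 9 passed. Markers and overlapping neighbours were not counted in this. Of all genes tested 9.54% passed above 0 and 8.44% below. Slc1a4, Slc36a1, Slc38a2, Adss and Sptlc2 were named in part for the size of this interaction. The count is therefore not comparable with these shares, and nothing is read from it. Of the members this was Shmt2, with 0.44 on the log2 scale (SE 0.116, adjusted p = 0.0109). Among the other named transporters the values were 1.40 for Slc1a4 (SE 0.255, adjusted p = 0.000561), 0.98 for Slc36a1 (SE 0.0937, adjusted p = 4.61e-07), 0.58 for Slc38a2 (SE 0.0527, adjusted p = 2.44e-07) and 0.22 for Slc36a4 (SE 0.0677, adjusted p = 0.0286). Trib3 (1.31, adjusted p = 0.0403) and Asns (0.68, adjusted p = 0.0196) of the Atf4 genes were also above 0, Trib3 being low in WT and WTL. Below 0 were Adss (-0.35, adjusted p = 0.00145) and Sptlc2 (-0.22, adjusted p = 0.0279). Groups of 3 libraries were too small for a test of single libraries.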

How the results depend on the processing

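Of the member and pathway results, counts of calls moved mostly with the 2-fold threshold. With it, members called numbered 0 in the LPS comparison without the inhibitor, 0 in that with it, 0 for the interaction (Slc6a9 counted here) and 2 in each JSH-23 comparison (a description, from which nothing is read), and other pathway genes 9, 5, 1, 3 and 0. With limma on TPM (pseudocounts 1 and 0.1), 2 members were called for LPS with JSH-23. The other pathway genes were 7 and 9 for the interaction and 16 and 14 for JSH-23 without LPS. The median of all genes shifted in that scale from -0.05 to -0.26 and -0.35 (LPS without JSH-23), from -0.02 to -0.16 and -0.21 (LPS with JSH-23) and from 0.03 to 0.11 and 0.14 (interaction), and with upper quartile scaling to -0.13 for LPS without JSH-23. Differences near 0 changed sign. Psat1 with LPS was -0.01 with upper quartile scaling and -0.23 and -0.26 on TPM, where it passed (limma adjusted p = 0.0372 and 0.0322). Mthfd1l was -0.15 and -0.23 without JSH-23 and -0.0036 and -0.0022 with it on TPM. Slc6a9 with LPS after JSH-23 was -0.06 with upper quartile scaling and -0.02 on TPM with either pseudocount. On TPM the interaction was 0.01 and 0.05 for Shmt1 and 0.11 for Mthfd2. Psph with JSH-23 under LPS was 0.01 with upper quartile scaling, 0.10 and 0.12 on TPM and 0.0014 with only the groups compared. Psph with LPS fell and passed on TPM, at -0.35 and -0.45 (limma adjusted p = 0.0135 and 0.0142). The cause was not tested.

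Leaving out 1 library gave 3 to 4 members and 39 to 45 other pathway genes for LPS without JSH-23. With JSH-23 it gave 3 to 5 and 35 to 42 (3 members without WT + JSH23 replicate 2). For the interaction 10 to 17 other pathway genes were called (10 without WTL replicate 4). In the JSH-23 comparisons the other pathway genes called were 29 to 33 under LPS and 24 to 29 without LPS. Member calls are not counted for these last comparisons, since JSH-23 bore on the choice of members. Signs varied for Phgdh with LPS (-0.22 to 0.07), Slc6a9 with LPS after JSH-23 (-0.11 to 0.11), the interaction of Shmt1 (-0.22 to 0.15) and Mthfd2 (-0.07 to 0.02), and Psph with JSH-23 under LPS (-0.12 to 0.05). Phgdh with LPS after JSH-23 also missed the threshold without WT + JSH23 replicate 1 or 2.

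With the replicate number as a block, 3 members were called for LPS without JSH-23 and 5 with it. In the interaction Phgdh (0.52, edgeR adjusted p = 0.022) and Psat1 (0.32, edgeR adjusted p = 0.0277) passed with the block. Of the other pathway genes 46 and 42 were called for LPS without and with JSH-23, and 16 for the interaction. In 10 of 12 libraries the closest was the one of the same number, and all correlations were under 0.1. The JSH-23 comparisons share no replicate number and could not be blocked. Members with few counts, such as Shmt1, Psph and Slc6a9 without JSH-23, limit what depth can show.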
